A study of Mus musculus with 4 samples.

Results

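S2 of a stepwise culture that takes primary mouse hepatocytes toward insulin-producing cells was compared with S0, its starting culture. S2 cells had received the DNA methylation inhibitor 5-azacytidine for 48 h (dose labelled as 5 mM), then the histone deacetylase inhibitor trichostatin A for 24 h (100 nM), and then 7 days of retinoic acid (dose labelled as 2 mM) together with an insulin, transferrin and selenium supplement. S0 cells had gone through none of these steps. Both stages shared an earlier phase in high-glucose medium (10% fetal bovine serum) and a later one without serum but with 2% knockout serum, B-27, N-2, non-essential amino acids, beta-mercaptoethanol and glutamine, to which bFGF and EGF, a fibroblast and an epidermal growth factor, were added at 20 ng/ml each. B-27 and N-2 are supplements too, and any insulin, transferrin or selenium in them was shared by both stages. The inhibitors, retinoic acid, the added insulin, transferrin and selenium supplement and the added days in culture entered between both stages. Their shares in a difference cannot be told apart. Each stage gave 1 library of total RNA, and the 2 other stages, S1 (after both inhibitors) and S3 (after 7 further days of nicotinamide at 10 mM without both growth factors), are given beside the comparison only as levels.

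A gene entered the comparison with at least 1 CPM in S2 or S0, where CPM is the read count of a gene relative to all reads in genes, after scaling between libraries. This held for 14362 of the 30138 entries of the count table. Of these, 12700 reached 1 CPM at both stages, 808 in S2 alone and 854 in S0 alone, and the direction of the genes at 1 stage alone was fixed by the limit itself. The reads in genes numbered 22944047 in S2 and 27602967 in S0, so that 3 reads, the most that a gene with 0 reads could have been expected to give, correspond to 0.137 CPM in S2 and 0.112 CPM in S0. With a single library at each stage there was no spread between cultures to set a difference against, and no p-value was computed. The interval in parentheses after a fold difference is its exact 95% interval from read counting and covers that error alone. A gene was called higher or lower in S2 where this whole interval lay beyond 2-fold. Where a gene had 0 reads at a stage, its fold is given against 3 reads there, taking the count of the other stage as it stands. The interval limit of such a gene can lie nearer to no change than this fold.

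Retinoic acid, the active acid of vitamin A, acts through nuclear receptors (RARs) that pair with retinoid X receptors on short DNA repeats, and the enzymes that break retinoic acid down are among the genes it switches on. Hox genes, which set position along the body axis, are classic targets in embryos and embryonal carcinoma cells. 5-azacytidine is built into DNA and traps DNA methyltransferases, and trichostatin A blocks the zinc-dependent histone deacetylases.

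In S2, 1325 genes were called higher (9.23% of those measured) and 1746 lower (12.2%), against which the counts of each group below have to be read. Plasma proteins such as albumin, NRF2 genes and cholesterol and fatty acid synthesis enzymes had most of their measured members among the higher genes, while macrophage markers, inflammation genes, mitosis and replication genes and smooth muscle contractile genes had most of theirs among the lower ones. The lower side reached further, with 584 genes lower and 129 higher by an interval beyond 8-fold. Among the 12700 genes at 1 CPM or more at both stages, 915 were higher and 1187 lower. The median over all genes measured was 0.04 on the log2 scale (1.03-fold higher). Of the higher genes, 18 had 0 reads in S0, and of the lower genes, 55 had 0 reads in S2.

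**Figure D1:**
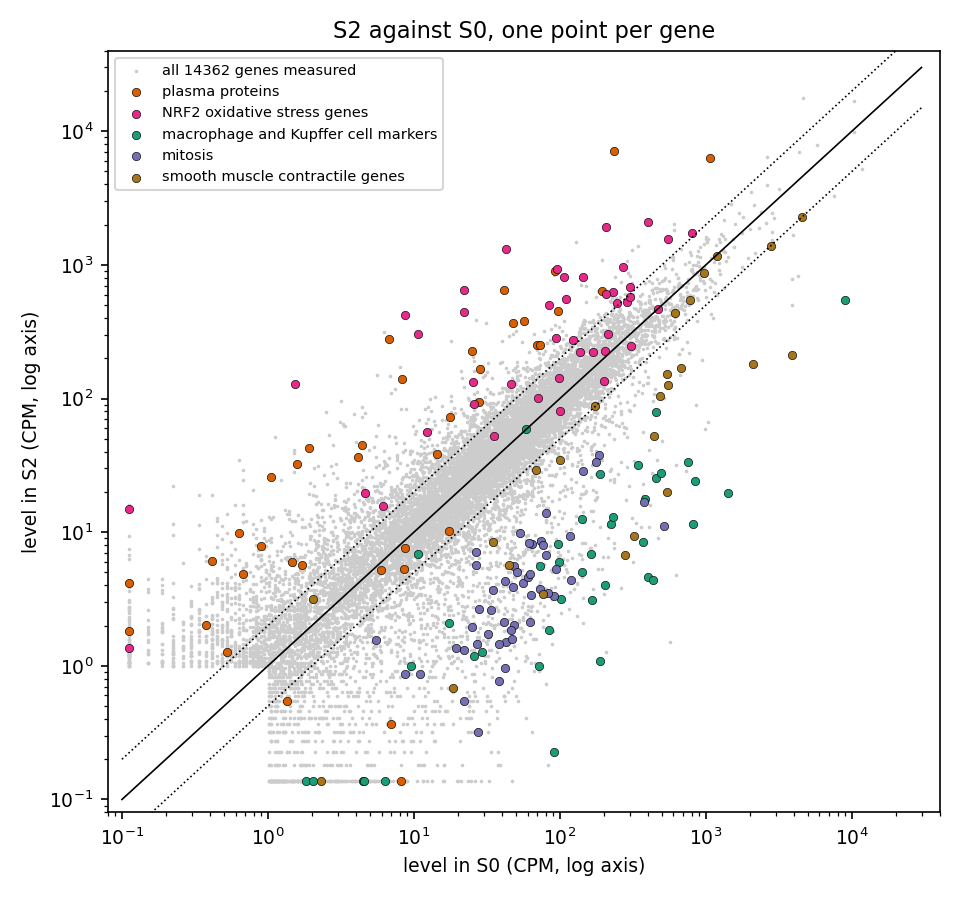
Each point is 1 of the 14362 genes, with its level in S2 (vertical, CPM, log axis) against its level in S0 (horizontal, CPM, log axis). The solid line marks equal levels, the dotted lines mark 2-fold, and values under the limit of 3 reads are drawn at that limit. Most plasma protein and NRF2 genes lie above the upper dotted line, and most macrophage, mitosis and contractile genes lie below the lower one.

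The libraries carry the label of primary mouse hepatocytes, and the levels of defining genes were set beside that label. Albumin (Alb) stood at rank 5 of all genes in S2 (7171 CPM, 0.686% of reads) and at rank 772 in S0 (234 CPM, 0.0226%). Afp, the fetal counterpart of albumin, stood at rank 8 in S2 (6283 CPM) and at rank 70 in S0 (1073 CPM). Many enzymes of the mature hepatocyte were near the limit at both stages, with 31 of 61 listed enzymes and transporters under 1 CPM in S2 and in S0. Markers of other liver cells were abundant in S0: Lyz2, the lysozyme of macrophages, stood at rank 223 in S2 (545 CPM) and at rank 4 in S0 (8936 CPM), and Acta2, the smooth muscle actin of activated stellate cells, at 212 CPM in S2 and 3895 CPM in S0. The 40 macrophage markers summed to 1015 CPM in S2 and 18528 CPM in S0 (4073 CPM in S1 and 1026 CPM in S3). In RNA from a whole culture, fewer cells of a type and less RNA per cell of that type cannot be told apart, and this holds for every difference described here.

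Enzymes that break down retinoic acid were far higher in S2, and Cyp26a1 was the gene whose interval lay farthest on the higher side. Cyp26a1 (ENSMUSG00000024987, chromosome 19), the cytochrome P450 that clears retinoic acid, had 320 reads in S2 and 0 reads in S0. Against 3 reads in S0 it was 129.7-fold higher, at 14.6 CPM in S2. It had 0.0344 CPM in S1, before retinoic acid was given, and 2.05 CPM in S3, after it was withdrawn. Cyp26b1, its paralog with the same activity, stood at 29.2 CPM in S2 and 0.674 CPM in S0, 43.3-fold higher (27.2 to 73.6). Rarb (ENSMUSG00000017491, chromosome 14), the retinoic acid receptor that is itself a textbook target of the receptors, had 2236 reads in S2 and 370 in S0, 7.35-fold higher (6.58 to 8.23).

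The promoters of Cyp26a1 and Rarb are known for a retinoic acid response element of the DR5 kind, in which 2 half-sites lie 5 bases apart in the same direction. They are shown here because both genes are known retinoic acid targets and were far higher in S2. The windows below are from RefSeq (GRCm38.p6, 5′ to 3′ on the strand of the gene, ending with the last base before the start site), with the DR5 match in capitals. The match starts 32 bases before the start site in Cyp26a1, where it reads on the opposite strand, and 53 bases before it in Rarb.
Cyp26a1 (chr19:37697658-37697807, + strand): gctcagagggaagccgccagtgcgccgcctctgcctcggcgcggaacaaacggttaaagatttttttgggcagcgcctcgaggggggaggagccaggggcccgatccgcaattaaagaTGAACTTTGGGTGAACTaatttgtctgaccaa
Rarb (chr14:16575477-16575626, - strand): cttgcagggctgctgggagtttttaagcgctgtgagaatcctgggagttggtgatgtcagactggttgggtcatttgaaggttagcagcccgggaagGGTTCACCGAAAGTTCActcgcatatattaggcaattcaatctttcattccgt
The half-sites were AGGTCA, the variant AGTTCA, the variant GGGTCA or the variant GGTTCA, and a match was 2 of these in the same direction with 5 bases between, on either strand, within 250 bases before and 50 bases after the start site. A match was in 0.0974% of all 32851 RefSeq promoter windows and in 0.0668% of the 10484 measured genes with a window. Cyp26a1 was the 1 of 11 retinoid metabolism genes with a window that held it, Rarb the 1 of 13 receptor and cofactor genes, and 0 of 9 Hox genes did. No other motif searched here overlapped either match.

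Of 21 listed genes of retinoid metabolism and binding, 17 were measured, and 8 were higher and 1 lower (median log2 ratio 1.04), 6 of the 17 having reached 1 CPM in S2 alone and 1 in S0 alone. Of the 10 that reached it at both stages, 3 were higher and 1 lower, with a median log2 ratio of 0.11. The higher ones spanned uptake, storage, transport and breakdown. Stra6, the cell surface receptor for retinol-binding protein, had 27 reads in S2 and 4 in S0, 8.21-fold higher (2.86 to 32.3), and Lrat, the enzyme that esterifies retinol for storage, had 44 reads in S2 and 3 in S0, 17.8-fold higher (5.72 to 89.8). Crabp2, which carries retinoic acid to the nucleus, stood at 5.65 CPM in S2 and 0.599 CPM in S0, 9.43-fold higher (5.58 to 17). Rbp4, the plasma carrier of retinol made by hepatocytes, was 2.67-fold higher (2.36 to 3.02). Dhrs3, which reduces retinaldehyde back to retinol, stood at 276 CPM in S2 and 85.1 CPM in S0, 3.24-fold higher (3.09 to 3.40). Its level in S1 was 14.1 CPM, the lowest of the 4 stages.

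Of the enzymes that make retinoic acid, the Aldh1a genes and Rdh10 were not among the higher genes. Aldh1a1, the retinaldehyde dehydrogenase with the highest level of its family here, stood at 317 CPM in S2 and 321 CPM in S0, a ratio of 1.01 (0.982 to 1.05) on the lower side. Aldh1a2 had 38 reads in S2 and 83 in S0, and Aldh1a3 had 22 reads in S2 and 13 in S0, and neither was called. Both had their highest level in S1, at 18.5 CPM and 12.2 CPM. Rdh10, the retinol dehydrogenase that feeds them, stood at 124 CPM in S2 and 156 CPM in S0. Fabp5, a fatty acid-binding protein that also binds retinoic acid, was the 1 lower gene of the list, at 55.8 CPM in S2 and 165 CPM in S0, 2.96-fold lower (2.78 to 3.16). Crabp1, the cytoplasmic retinoic acid binder, had 0 reads in S2 and 10 in S0, with 4.44 CPM in S1.

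The receptors differed from each other. Of 21 listed receptors and cofactors 18 were measured, with 2 higher, 3 lower and a median log2 ratio of 0.06. Per length, the deposited level of Rarb was 11.7 RPKM in S2 and 1.60 RPKM in S0, that of Rara 1.78 RPKM in S2 and 4.31 RPKM in S0, and that of Rarg 3.40 RPKM in S2 and 2.35 RPKM in S0 (RPKM is the read count relative to gene length and to all reads). Of these 3 receptors Rarb had the highest level per length in S2 and the lowest in S0. Rara was 2.40-fold lower by scaled counts (2.14 to 2.71). Meis2, a homeodomain partner of Hox proteins, was the other higher gene (2.41-fold, 2.10 to 2.77), and the coactivator gene Ncoa3 (2.69-fold, 2.53 to 2.87) and the transglutaminase gene Tgm2 (2.41-fold, 2.31 to 2.51) were the other lower ones. Rxra, the retinoid X receptor of liver, stood at 87.1 CPM in S2 and 159 CPM in S0 and was not called.

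Of 39 listed Hox genes 19 were measured, and 13 were called higher and 0 lower (median log2 ratio 2.44), but 10 of the 19 reached 1 CPM in S2 alone and 1 in S0 alone. Of the 8 that reached it at both stages, 3 were higher (Hoxa2, Hoxa5 and Hoxb3) and 0 lower, with a median log2 ratio of 1.13. Their levels were low, and the 39 together summed to 122 CPM in S2 and 25.1 CPM in S0. Hoxa5 was the most abundant, with 980 reads in S2 and 74 in S0 (44.6 CPM and 2.77 CPM), 16.1-fold higher (12.7 to 20.7). Hoxb9 had 204 reads in S2 and 2 in S0, 124-fold higher (33.9 to 1031). Hoxa4 had 126 reads in S2 and 13 in S0, 11.8-fold higher (6.65 to 22.8), and Hoxa2 185 reads in S2 and 37 in S0, 6.08-fold higher (4.25 to 8.91). The higher genes came from all 4 clusters, on chromosomes 6 (Hoxa), 11 (Hoxb), 15 (Hoxc) and 2 (Hoxd). Hoxb4, with 226 reads in S2 against 132 in S0, was not called, and nor was Hoxc13, with 19 reads in S2 and 27 in S0. The Hoxa cluster transcripts Hotairm1 (98 reads in S2, 37 in S0) and Hoxaas3 (55 reads in S2, 9 in S0), both long non-coding, were higher as well. Reads of antisense transcripts and the genes they overlap cannot be told apart here, since the use of strand in counting is not given in the sources used here.

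**Figure D2:**
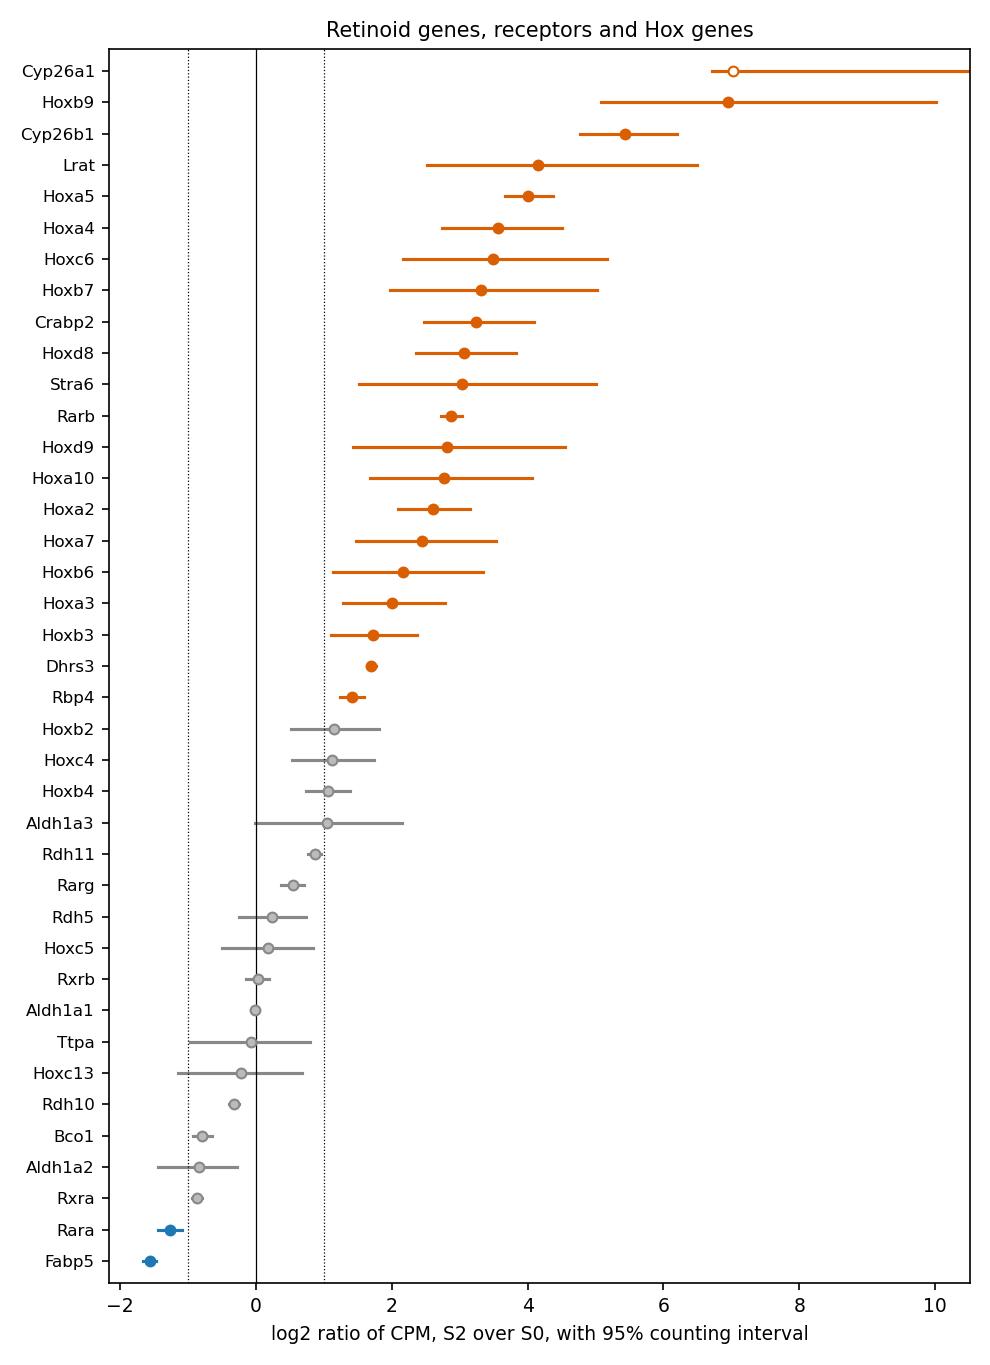
The log2 ratio of CPM, S2 over S0, is drawn for measured retinoid metabolism genes, receptors and Hox genes, with horizontal bars for the 95% counting interval and dotted lines at 2-fold. Filled orange points were called higher in S2, blue points lower and grey points neither. The open circle is Cyp26a1, drawn at its ratio against 3 reads in S0 because it had 0 reads there.

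Liver transcription factors control the plasma protein genes. Of 28 listed liver factors 24 were measured, and 8 were higher and 0 lower (median log2 ratio 0.73), 3 of the 24 having reached 1 CPM in S2 alone, and 5 of the 21 at both stages were higher. Hnf4a (ENSMUSG00000017950), the nuclear receptor at the centre of hepatocyte identity, had 234 CPM in S2 and 108 CPM in S0, 2.17-fold higher (2.08 to 2.28), with 38.9 CPM in S1. Gata4 (2.24-fold, 2.07 to 2.43) and Gata6 (2.45-fold, 2.28 to 2.63), zinc finger factors of liver and gut endoderm, were close to it, the call of Gata4 being lost under 2 other scalings. Nr1h4, the bile acid receptor, had 380 reads in S2 and 77 in S0, 6.00-fold higher (4.69 to 7.77), and Nr1i2, the pregnane X receptor that senses drugs, was 2.81-fold higher (2.33 to 3.39). Foxa2, a pioneer factor of liver and pancreas, stood at 43.9 CPM in S2 and 29.1 CPM in S0 and was not called. Cebpb, which is induced in the acute phase, stood at 100.4 CPM in S2 and 167 CPM in S0, and was not called either.

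Plasma proteins held a larger share of higher genes than any other list of more than 20 measured members. Of 51 listed, 39 were measured, and 31 were higher and 2 lower (median log2 ratio 2.55), with 8 at 1 CPM in S2 alone and 3 in S0 alone. The 51 together summed to 18624 CPM in S2 and 2188 CPM in S0, 8.51-fold higher, with 7337 CPM in S1 and 12060 CPM in S3. Alb (ENSMUSG00000029368) had 157482 reads in S2 and 6245 in S0, 30.7-fold higher (29.9 to 31.5). Afp was 5.85-fold higher (5.78 to 5.93), so the fetal gene stood above albumin in S0 and below it in S2, per length too (1061 RPKM against 1229 RPKM for Alb in S2, and 183 RPKM against 40.3 RPKM in S0). Kng1, the precursor of bradykinin, was 41.2-fold higher (35.6 to 48.1), and Ttr, the carrier of thyroxine and of retinol-binding protein, stood at 382 CPM in S2 and 56.5 CPM in S0, 6.76-fold higher (6.39 to 7.14). Trf, the iron carrier transferrin, was 4.65-fold higher (4.45 to 4.86) and Gc, the vitamin D carrier, 9.67-fold (9.27 to 10.1). The Serpina1 genes, copies of the antitrypsin gene, were higher too, such as Serpina1d with 568 reads in S2 and 28 in S0, but how reads were shared among these near-identical copies is uncertain.

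The lower plasma proteins were coagulation factors of chromosome 8. F7 had 3 reads in S2 and 219 in S0, 60.0-fold lower (20.3 to 293), and F10 had 8 reads in S2 and 187 in S0, 19.2-fold lower (9.55 to 45.2). Both are liver-made clotting proteases that macrophages can also make. The apolipoproteins went both ways: of 18 measured, 5 were higher and 2 lower, against 4 and 2 of the 16 at both stages. Apoa1, the main protein of high-density lipoprotein, had 6916 reads in S2 and 167 in S0, 50.4-fold higher (43.2 to 59.1), and Apoh had 208 reads in S2 and 6 in S0. Apoe, which hepatocytes and macrophages both make, stood at 781 CPM in S2 and 3919 CPM in S0, 5.02-fold lower (4.94 to 5.10). Apob, the scaffold of very-low-density lipoprotein, stood at 3690 CPM in S2 and 3151 CPM in S0, a ratio of 1.17 (1.16 to 1.18). The fall of macrophage markers given above stood beside F7, F10 and Apoe, and its part in them was not tested.

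The HNF1 motif of hepatocyte promoters, searched on both strands as GTTAAT, then any base, then ATT, in the same windows, was in 3 of 33 plasma protein promoters with a window, those of Afp, Cp and Gc, and in 0 of 23 promoters of hepatocyte enzymes. Of all windows 0.399% held it, and of measured genes with a window 0.324%. The stretches of Afp and Gc are shown because both genes were among the higher plasma proteins, with the match in capitals, 105 and 52 bases before the start site.
Afp (chr5:90490579-90490648, + strand): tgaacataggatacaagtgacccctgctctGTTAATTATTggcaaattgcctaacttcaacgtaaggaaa
Gc (chr5:89457911-89457980, - strand): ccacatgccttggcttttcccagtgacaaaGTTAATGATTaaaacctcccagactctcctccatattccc
Cp, the copper-binding ferroxidase of plasma, was 3.44-fold higher (3.26 to 3.62), at 251 CPM in S2 and 73.1 CPM in S0.

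Hepatocyte enzymes and transporters were measured for 30 of 61 listed genes, with 18 higher and 2 lower (median log2 ratio 1.72), and 9 of the 30 reached 1 CPM in S2 alone and 1 in S0 alone. Of the 20 that reached it at both stages, 10 were higher and 2 lower. Cyp2a5, a coumarin hydroxylase, had 348 reads in S2 and 1 in S0, 423-fold higher (75.5 to 16766), and Adh1, the liver alcohol dehydrogenase that also oxidises retinol, had 248 reads in S2 and 9 in S0, 33.5-fold higher (17.4 to 74.2). Abcc2, the canalicular pump for conjugated bilirubin, stood at 650.2 CPM in S2 and 22.1 CPM in S0, 29.4-fold higher (27.1 to 32.0). The lower ones were Arg1, the arginase of the urea cycle that macrophages share (23 reads in S2, 1805 in S0, 64.5-fold lower, 42.9 to 102), and Hal, the histidase (70 reads in S2, 2366 in S0, 27.8-fold lower, 21.9 to 35.8). Glul, the glutamine synthetase of pericentral hepatocytes, stood at 307 CPM in S2 and 197 CPM in S0 and was not called. Cyp2 and Gsta family members have close copies, and their reads are uncertain in the same way.

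**Figure D3:**
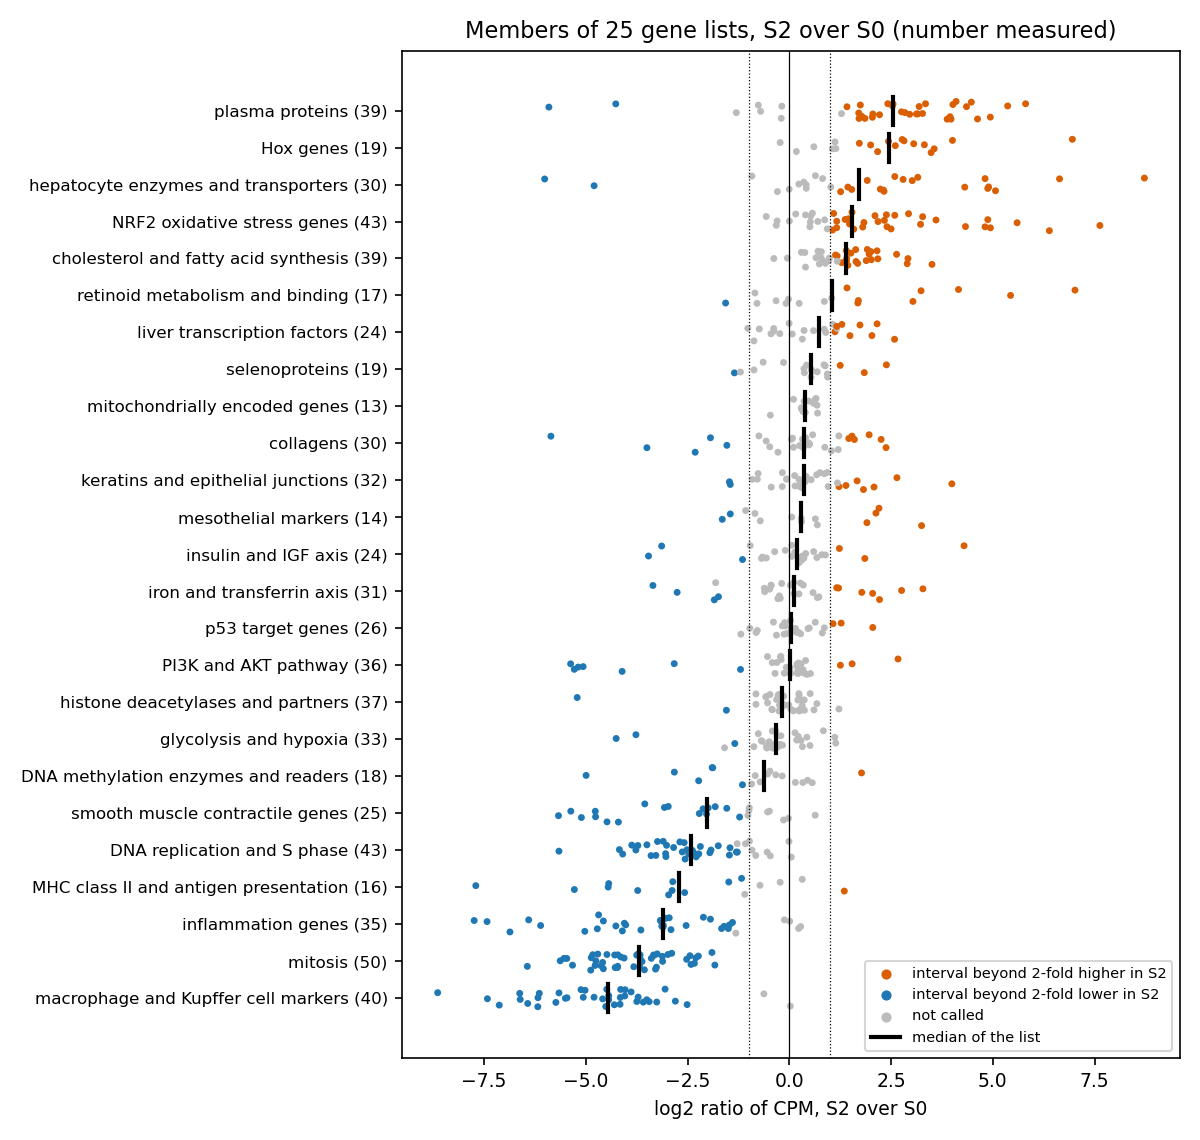
Each point is a measured member of 1 of 25 gene lists, at its log2 ratio of CPM, S2 over S0, with the number measured in brackets and a black bar at the median of the list. Orange and blue points have a 95% counting interval beyond 2-fold (dotted lines) higher or lower in S2, and members with 0 reads at a stage are drawn at their ratio against 3 reads there. Medians run from 2.55 for plasma proteins at the top to -4.46 for macrophage markers at the bottom.

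Genes of the NRF2 pathway, which answers oxidative and electrophile stress with glutathione and quinone enzymes, were largely higher, with 30 of the 43 listed genes called higher and 0 lower (median log2 ratio 1.54), all 43 being measured and 2 of them at 1 CPM in S2 alone. Together they summed to 21882 CPM in S2 and 6800.2 CPM in S0 (13457 CPM in S1 and 18812 CPM in S3). Gclc, the catalytic subunit of the enzyme that limits glutathione synthesis, had 42528 reads in S2 and 5536 in S0, 9.34-fold higher (9.09 to 9.61). Nqo1, the quinone reductase, stood at 443 CPM in S2 and 22.1 CPM in S0, 20.1-fold higher (18.5 to 21.9), and its S1 level of 442 CPM was close to that of S2. The glutathione transferases reached furthest, with Gsta2 83.9-fold higher (61.7 to 117), Gsta1 48.4-fold (42.5 to 55.4) and Gstm1 30.7-fold (29.0 to 32.6), although reads of these copies can be shared. Slc7a11, the cystine importer, was 5.05-fold higher (4.85 to 5.26), and Hmox1, the heme oxygenase, 2.24-fold (2.15 to 2.34). Neither Nfe2l2, which encodes NRF2 itself (135 CPM in S2 and 200.03 CPM in S0), nor its inhibitor Keap1 (52.4 CPM in S2 and 35.3 CPM in S0) was called.

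The selenium in the supplement is built into selenoproteins, of which 3 of 19 measured were higher and 1 lower (median log2 ratio 0.54). Txnrd1 (ENSMUSG00000020250), the cytosolic thioredoxin reductase, which is a selenoprotein and an NRF2 target, had 45766 reads in S2 and 10653 in S0, 5.23-fold higher (5.12 to 5.34), and was the 1 selenoprotein beyond 4-fold. Sepw1, a small muscle and brain selenoprotein, was 3.59-fold higher (3.26 to 3.95) and Selm 2.38-fold (2.19 to 2.58). The peroxidase genes Gpx1 (403 CPM in S2 and 209.9 CPM in S0) and Gpx4 (994 CPM in S2 and 520.1 CPM in S0), whose mRNAs are known to follow selenium supply to different degrees, were at 1.92 (1.86 to 1.99) and 1.91 (1.87 to 1.95) and were not called. Gpx3, the plasma peroxidase, was the lower one, at 9.24 CPM in S2 and 23.5 CPM in S0 (2.55-fold, 2.17 to 3.00). Sepp1, the plasma carrier of selenium made by liver, stood at 1082 CPM in S2 and 599 CPM in S0.

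The antioxidant response element was searched as TGACNNNGC on both strands. It was in 13 of 35 NRF2 list promoters with a window (37.1%), against 17.1% of the measured genes and 12.4% of all windows. The stretches of Txnrd1 and Gsta3 are shown for the selenoprotein and the transferase that were both higher, with the match in capitals, 92 bases (on the opposite strand) and 121 bases before the start site.
Txnrd1 (chr10:82859084-82859152, + strand): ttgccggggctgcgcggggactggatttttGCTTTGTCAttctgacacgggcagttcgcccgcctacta
Gsta3 (chr1:21240434-21240502, + strand): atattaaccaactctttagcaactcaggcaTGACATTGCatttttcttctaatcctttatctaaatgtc
Gsta3, a transferase that acts on aflatoxin epoxide, had 6618 reads in S2 and 287 in S0, 28.0-fold higher (24.9 to 31.7).

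Transferrin and insulin were the other parts of the supplement. Tfrc, the transferrin receptor that brings iron into cells, stood at 89.4 CPM in S2 and 321 CPM in S0, 3.59-fold lower (3.42 to 3.77), with 80.8 CPM in S1. Of 31 measured iron genes 7 were higher and 4 lower (median log2 ratio 0.11), against 5 and 4 of the 28 at 1 CPM or more at both stages. Heph, a membrane ferroxidase, was 9.73-fold higher (6.23 to 15.9) and Bmp6, the signal that raises hepcidin, 6.77-fold (5.41 to 8.55), while Slc11a1, the phagosomal metal pump of macrophages, was 10.2-fold lower (9.09 to 11.5). Insr, the insulin receptor, stood at 131 CPM in S2 and 75.3 CPM in S0, a ratio of 1.74 (1.64 to 1.84) that was not called, and Igf1r at 102 CPM in S2 and 131 CPM in S0. Of 24 measured genes of the insulin and IGF axis 3 were higher and 3 lower (median log2 ratio 0.19). Igf1, a growth hormone-regulated factor that macrophages also make, stood at 11.8 CPM in S2 and 129.7 CPM in S0 (11-fold lower, 9.69 to 12.5), and its binding proteins moved apart, with Igfbp4 8.80-fold lower (8.27 to 9.37) and Igfbp6 19.6-fold higher (16.3 to 23.8).

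Cholesterol and fatty acid synthesis genes, which insulin and sterol-sensing SREBP factors control, had 23 of 39 measured members higher and 0 lower (median log2 ratio 1.40). The desaturase genes Scd2 (1472 CPM in S2 and 129.6 CPM in S0, 11.4-fold, 11 to 11.8) and Scd1 (7.55-fold, 6.90 to 8.26) and Fads2 (7.45-fold, 6.87 to 8.08) were farthest. Of the sterol pathway, Tm7sf2 was 6.21-fold higher (5.54 to 6.99) and Msmo1 4.52-fold (4.29 to 4.76). Fasn, the fatty acid synthase, had a ratio of 1.76 (1.71 to 1.82) and was not called. Srebf2, the sterol-sensing factor itself, stood at 76.1 CPM in S2 and 78.6 CPM in S0. Fatty acid oxidation and PPAR targets had 4 of 31 measured members higher and 4 lower (median log2 ratio 0.18). Among the 27 at 1 CPM or more at both stages 2 were higher and 3 lower. Plin2, the lipid droplet coat, was 3.50-fold lower (3.39 to 3.61).

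Macrophage markers were lower across the list. All 40 listed markers of macrophages and Kupffer cells were measured, 6 of them at 1 CPM in S0 alone, and 38 were lower and 0 higher, with a median log2 ratio of -4.46 (22-fold lower). The exceptions were Cd5l, a protein that Kupffer cells secrete (6.92 CPM in S2, 10.7 CPM in S0), and Slc40a1, the iron exporter ferroportin, which hepatocytes also have (59.2 CPM in S2, 58.2 CPM in S0). Fcgr1, the high-affinity IgG receptor, had 5 reads in S2 and 2427 in S0, 399-fold lower (171 to 1230.2). Csf1r, the receptor for the survival factor of macrophages, stood at 24.1 CPM in S2 and 838 CPM in S0, 34.7-fold lower (31.9 to 37.9), and Adgre1, the F4/80 antigen, at 8.47 CPM in S2 and 373 CPM in S0, 44.1-fold lower (38.1 to 51.3). The Kupffer cell markers Timd4 and Cd163 had 0 reads in S2 against 54 and 122 in S0. Against 3 reads in S2 they were 14.8-fold and 33.4-fold lower, with interval limits of 11.6-fold and 26.8-fold. Lyz2 kept 545 CPM in S2, 16.4-fold lower (16.1 to 16.7), and its level in S1 was 2429 CPM.

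Inflammation and antigen presentation genes were lower beside them. Of 35 measured inflammation genes 30 were lower and 0 higher (median log2 ratio -3.10), 9 of them at 1 CPM in S0 alone. Tnf, the tumour necrosis factor, had 4 reads in S2 and 1043 in S0, 214-fold lower (83.5 to 788), Nlrp3, the inflammasome sensor, had 4 reads in S2 and 567 in S0, and Ptgs2, the inducible prostaglandin synthase, stood at 264 CPM in S2 and 745 CPM in S0, 2.83-fold lower (2.74 to 2.91). Of 16 measured genes of antigen presentation 11 were lower and 1 higher (median log2 ratio -2.72), 5 of the 16 being at 1 CPM in S0 alone. Among the 11 at 1 CPM or more at both stages 6 were lower and 1 higher, with a median log2 ratio of -1.17. Cd74, the invariant chain of MHC class II, had 4 reads in S2 and 1014 in S0, while the higher one, H2-DMa, stood at 61.4 CPM in S2 and 24.1 CPM in S0, 2.55-fold higher (2.32 to 2.81). Of 13 measured endothelial markers 6 were lower and 2 higher, with 1 at 1 CPM in S2 alone and 4 in S0 alone. Among the 8 at 1 CPM or more at both stages 3 were lower and 2 higher. Egfl7 (3.21-fold) and Eng (2.49-fold) were the higher ones. Farthest of the lower ones was Stab1, a scavenger receptor of liver sinusoids and of macrophages (105 reads in S2, 16780 in S0, 131-fold lower, 108 to 161). Vwf and Cdh5, markers that macrophages lack, had 6 and 4 reads in S2 and 368 and 79 in S0. The summed macrophage level was 18.2-fold lower in S2, and how much of these differences goes with it was not tested.

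Of 23 measured complement and acute phase genes 3 were higher and 8 lower (median log2 ratio -0.50), 3 of them at 1 CPM in S0 alone. C1qa, C1qb and C1qc, which macrophages make, were 86.1-fold (70.8 to 106), 53.3-fold (42.0 to 68.8) and 98.7-fold lower (80.8 to 122). C1s1, C2 and Cfi, which hepatocytes make, were 6.06-fold (4.47 to 8.35), 2.52-fold (2.14 to 2.98) and 3.13-fold higher (2.73 to 3.60). C3, the hub of the cascade, stood at 80.1 CPM in S2 and 65.1 CPM in S0 and was not called. Saa3, the acute phase serum amyloid of macrophages and fat, had 14 reads in S2 and 685 in S0, 40.2-fold lower (23.8 to 74.0).

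PI3K signalling, which the title of the series names, turns insulin and growth factor signals into AKT activity, and its catalytic subunits divide into p110alpha and p110beta (Pik3ca, Pik3cb), found in most cells, and p110gamma and p110delta (Pik3cg, Pik3cd), found mainly in leukocytes. All 36 listed genes were measured, and 7 were lower and 3 higher, with a median log2 ratio of 0.03 whose sign turned under 2 other scalings. Pik3cg had 43 reads in S2 and 2037 in S0, 38.9-fold lower (28.8 to 54.0), and Pik3cd 93 reads in S2 and 1951 in S0, 17.2-fold lower (14 to 21.5). The regulatory subunits of p110gamma, Pik3r5 (24 reads in S2, 978 in S0) and Pik3r6 (7 reads in S2, 353 in S0), and the leukocyte phosphatase gene Inpp5d (117 reads in S2, 5188 in S0) were lower by 33.5-fold (22.4 to 52.5), 41.5-fold (19.9 to 104) and 36.5-fold (30.4 to 44.2). The other lower ones were Inpp4b, a further phosphatase gene (7.10-fold, 5.56 to 9.20), and Pik3ap1, an adaptor of B cells and macrophages (2.30-fold, 2.11 to 2.50).

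The widely expressed subunits were not called. Pik3ca stood at 165 CPM in S2 and 125 CPM in S0, a ratio of 1.32 (1.26 to 1.38), and Pik3cb at 60.5 CPM in S2 and 46.8 CPM in S0, a ratio of 1.29 (1.2 to 1.40). Per length, Pik3ca and Pik3cb stood at 6.43 and 3.25 RPKM in S2 and at 4.90 and 2.53 RPKM in S0, and Pik3cd and Pik3cg at 0.30 and 0.116 RPKM in S2 and at 5.21 and 4.56 RPKM in S0. All 4 catalytic subunits thus lay between 2.53 and 5.21 RPKM in S0, and both leukocyte ones were below the others in S2. Akt1 stood at 242 CPM in S2 and 255 CPM in S0, and Akt2 at 117 CPM in S2 and 96.2 CPM in S0. The 3 higher genes were Pik3c2g, a class II kinase of liver (241 reads in S2, 46 in S0, 6.37-fold, 4.63 to 8.94), Pik3ip1, an inhibitor of PI3K (2.91-fold, 2.43 to 3.51), and the regulatory subunit gene Pik3r3 (2.39-fold, 2.13 to 2.68). The sum of macrophage markers, 1015 CPM in S2 and 18528 CPM in S0, stood beside the lower subunits, and its part in them was not tested.

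**Figure D4:**
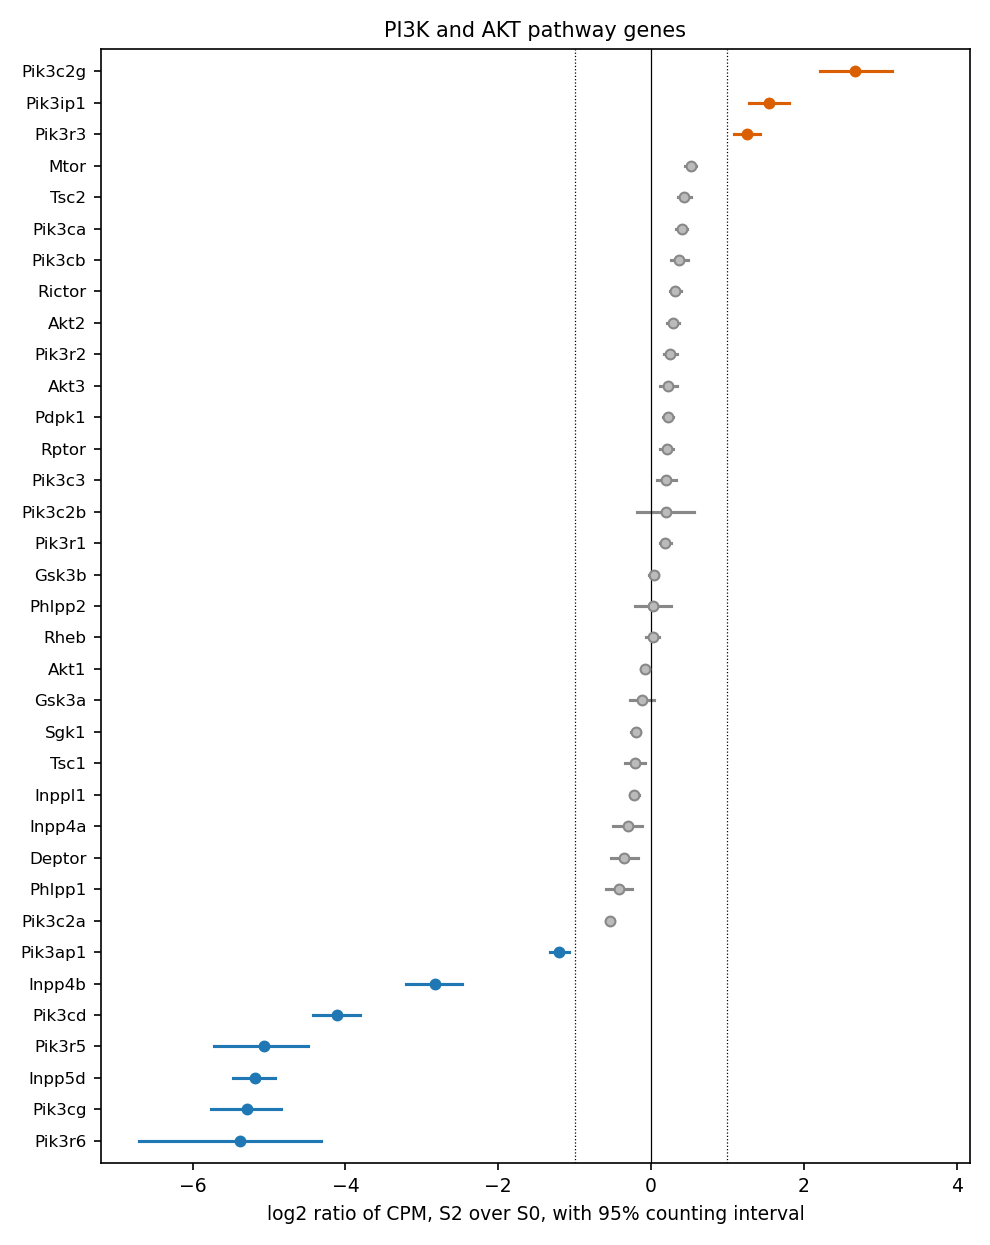
The log2 ratio of CPM, S2 over S0, is drawn for PI3K and AKT pathway genes with bars for the 95% counting interval and dotted lines at 2-fold. The 3 orange genes were called higher in S2 and the 7 blue ones lower, and the grey ones, Pik3ca, Pik3cb, Akt1 and Akt2 among them, were not called.

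Malat1 (ENSMUSG00000092341, chromosome 19), the nuclear long non-coding RNA in the title of the series, had 392356 reads in S2 and 122913 in S0, 3.88-fold higher (3.86 to 3.91). It was the most abundant transcript in S2 (1.71% of reads) and the seventh in S0 (0.445%). Its level was 18013 CPM in S1 and 8340 CPM in S3, so that S1 and S2 were close to each other and both above S0 and S3. Neat1, the scaffold of nuclear paraspeckles, which lies on the same chromosome, stood at 1290.2 CPM in S2 and 312 CPM in S0, 4.13-fold higher (4.03 to 4.23). The title also names miR-124-3p, a short RNA that these gene counts do not measure. Of 26 genes reported elsewhere as its targets, all measured, 2 were higher and 3 lower, with a median log2 ratio of 0.04 beside 0.04 over all genes, and its sign turned under the same 2 scalings. Ptbp1, the splicing repressor best known as its target, stood at 180.5 CPM in S2 and 354 CPM in S0, a ratio of 1.96 on the lower side (1.89 to 2.04) that was not called. Ctdspl (2.28-fold, 2.08 to 2.50) and Ahr, the dioxin receptor (2.13-fold, 2.01 to 2.25), were the higher ones, the call of Ahr being lost under each of 3 other scalings, and Rhog and Jag1 were among the lower ones, at 2.87-fold (2.53 to 3.28) and 2.17-fold (2.05 to 2.30).

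Long non-coding RNAs took 2.45% of the reads in S2 and 0.966% in S0, and 0.736% in S2 and 0.521% in S0 without Malat1. Of 33 measured named ones, 6 were higher and 2 lower. H19, the imprinted fetal liver transcript, had 9 reads in S2 and 328 in S0, 30-fold lower (15.6 to 66.1), and Mir142hg, the host of a blood cell microRNA, had 1 read in S2 and 61 in S0. Of 751 annotated long non-coding genes 54 were higher and 80 lower. Unannotated ones, which carry assembly names only, differed from that: of 715, 282 were measured, with 104 (36.9%) called higher and 14 (4.96%) called lower. Of the 282, 106 reached 1 CPM in S2 alone, and of the 153 that reached it at both stages 26 were higher and 5 lower.

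**Figure D5:**
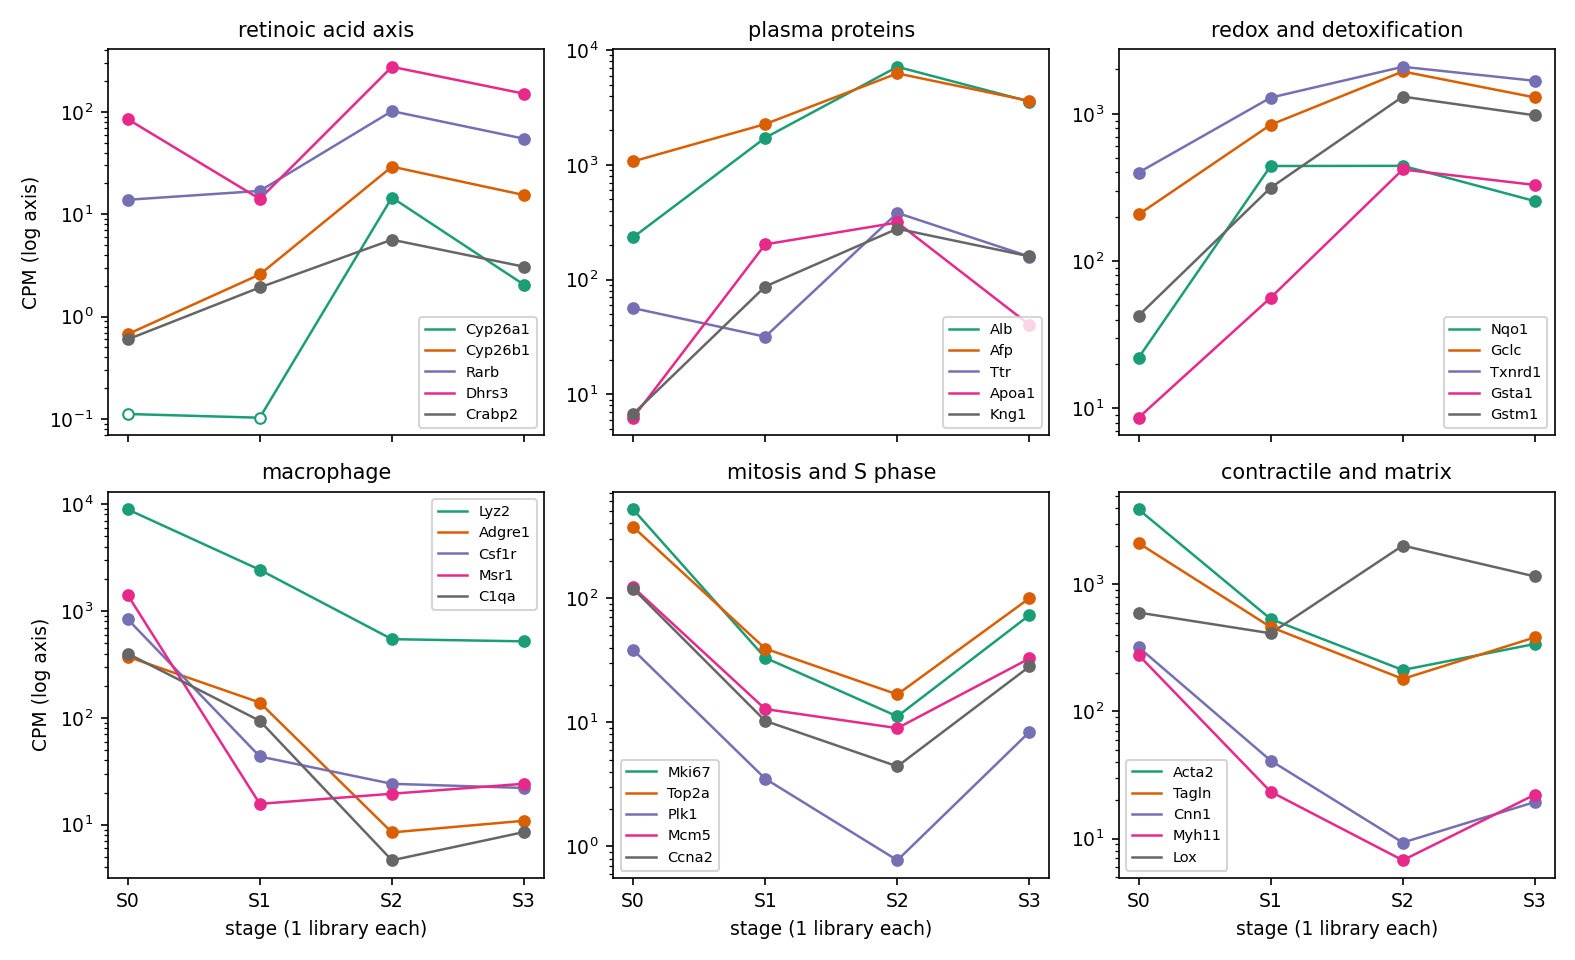
Levels of 30 genes over S0, S1, S2 and S3 (CPM, log axis, 1 library at each stage) are drawn in 6 groups, and values of 3 reads or fewer are open circles at the limit of 3 reads. Cyp26a1, Rarb and Dhrs3 peak in S2, Alb and Afp peak in S2, Lyz2 falls to 545 CPM by S2 and stays near it, and Mki67 and Top2a are lowest in S2.

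Cell division genes were lower as a group. All 50 listed mitosis genes were measured, 6 of them at 1 CPM in S0 alone, and 50 were lower and 0 higher, with a median log2 ratio of -3.70 (13-fold lower). Mki67 (ENSMUSG00000031004), the proliferation antigen, had 245 reads in S2 and 13840 in S0, 46.4-fold lower (40.9 to 52.9), and Plk1, the mitotic kinase, had 17 reads in S2 and 1024 in S0, 49.5-fold lower (30.8 to 85.3). Top2a, the topoisomerase that untangles chromosomes, stood at 16.8 CPM in S2 and 374 CPM in S0, 22.3-fold lower (20.1 to 24.9). Of 43 measured replication genes 34 were lower and 0 higher, with a median log2 ratio of -2.41. The replicative helicase genes Mcm5 (8.97 CPM in S2, 122 CPM in S0, 13.7-fold, 11.8 to 15.8) and Mcm6 (14.4 CPM in S2, 163 CPM in S0, 11.3-fold, 10.1 to 12.7) were lower, and Pcna, the sliding clamp, was 3.35-fold lower (3.15 to 3.58). E2f1, a factor that drives such genes, stood at 17.9 CPM in S2 and 18 CPM in S0, whereas E2f8, E2f2 and Cdc6 were 50.6-fold (25.5 to 118), 17.1-fold (11.3 to 27.2) and 18.1-fold lower (12.8 to 26.3). Over the 4 stages Mki67 stood at 518 CPM in S0, 33.1 CPM in S1, 11.2 CPM in S2 and 73.0 CPM in S3, so that most of the difference was there in S1, and S2 was the lowest.

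The promoters of mitosis and replication genes are known for different elements, the CHR element bound by the DREAM complex and the E2F site. TTTGAA, the core of the CHR element, was in 29 of 41 mitosis promoters with a window (70.7%), in 6 of 34 replication promoters (17.6%), and in 14.3% of measured genes with a window. The E2F site, searched as TTTCCCGC or TTTGGCGC, was in 3 of 41 mitosis promoters (7.32%), in 12 of 34 replication promoters (35.3%) and in 3.33% of measured genes. Both were searched on both strands, and of all windows 17.9% held the CHR core and 1.56% the E2F site. The stretches of Mki67, Top2a and Mcm6 are shown as examples of each, with every match in the stretch in capitals; the nearer match of Mki67 is 98 bases before the start site, that of Top2a 23 bases (on the opposite strand) and that of Mcm6 47 bases.
Mki67 (chr7:135716442-135716507, - strand): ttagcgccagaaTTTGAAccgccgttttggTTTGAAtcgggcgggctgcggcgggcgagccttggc
Top2a (chr11:99024190-99024242, - strand): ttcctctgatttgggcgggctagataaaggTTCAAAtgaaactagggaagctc
Mcm6 (chr1:128359715-128359782, - strand): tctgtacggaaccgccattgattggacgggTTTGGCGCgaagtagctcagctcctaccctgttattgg

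Of 18 measured genes of the cyclin D axis and the CDK inhibitors, 1 was higher and 4 lower (median log2 ratio -0.39). Cdkn2b, the CDK4 and CDK6 inhibitor p15, stood at 357 CPM in S2 and 93.3 CPM in S0, 3.82-fold higher (3.65 to 4.0). Cdkn1a, the p53-induced inhibitor p21, stood at 48.7 CPM in S2 and 83.9 CPM in S0, and Cdkn1b at 22 CPM in S2 and 33.3 CPM in S0, and neither was called. Ccnd1, the cyclin that growth factors induce, stood at 331 CPM in S2 and 607 CPM in S0 and Ccnd2 at 1152 CPM in S2 and 583 CPM in S0. The lower ones were Cdkn2c (17-fold, 12.9 to 22.7), Rbl1 (8.44-fold, 7.25 to 9.87), Mycn (9.87-fold, 4.81 to 23.5) and Mycl (4.20-fold, 3.21 to 5.57).

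The enzymes that both inhibitors act on were examined next. Of 18 measured genes of DNA methylation 6 were lower and 1 higher (median log2 ratio -0.63). Dnmt1, the maintenance methyltransferase, which is coupled to replication, stood at 50.1 CPM in S2 and 235 CPM in S0, 4.68-fold lower (4.39 to 5.00), and its guide Uhrf1 was 31.9-fold lower (25.8 to 39.7). Dnmt3a, a methyltransferase that sets new marks, had a ratio of 1.90 on the lower side (1.77 to 2.04) and was not called, and Mbd1, a reader of methylated DNA, was the higher one (3.42-fold, 3.21 to 3.65). Of 37 measured genes of the histone deacetylases and their complexes 2 were lower and 0 higher (median log2 ratio -0.19). Hdac9 had 10 reads in S2 and 451 in S0, 37.1-fold lower (20.0 to 77.9), and Ezh2, the histone H3 lysine methyltransferase, was 2.92-fold lower (2.59 to 3.30). Hdac1, a main target of trichostatin A, stood at 30.4 CPM in S2 and 34.6 CPM in S0.

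Of 25 smooth muscle contractile genes, all measured, 17 were lower and 0 higher (median log2 ratio -2.03). Acta2 (ENSMUSG00000035783) had 4655 reads in S2 and 104048 in S0, 18.4-fold lower (17.8 to 18.9). Cnn1, an actin-binding calponin, stood at 9.29 CPM in S2 and 321 CPM in S0, 34.5-fold lower (30 to 39.9), and Myh11, the smooth muscle myosin, at 6.74 CPM in S2 and 278 CPM in S0, 41.3-fold lower (35.1 to 49.0). Tagln was 11.7-fold lower (11.4 to 12.1). Flna and Tpm1, which most cells use, stood at 2293 and 1388 CPM in S2 and at 4533 and 2809.6 CPM in S0, ratios of 1.98 (1.96 to 2.00) and 2.02 (2.00 to 2.05) on the lower side that were not called. Both were called lower with TMM over S2 and S0 alone and with DESeq2 size factors, and Tpm1 also with no TMM. Actb, the cytoplasmic actin and the most abundant transcript of S0, stood at 5211 CPM in S2 and 11760 CPM in S0, 2.26-fold lower (2.24 to 2.27).

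The CArG box, bound by the serum response factor (Srf), was in 4 of 20 contractile promoters with a window (20.0%), those of Cnn2, Myl9, Srf and Vcl, against 1.62% of measured genes and 1.63% of all windows. Myl9, a regulatory light chain of myosin, and Srf itself were lower, 8.39-fold (7.90 to 8.92) and 2.90-fold (2.67 to 3.15), and their stretches are shown with the boxes in capitals, the box of Myl9 161 bases before the start site and the nearer box of Srf 62 bases before it.
Myl9 (chr2:156775273-156775342, + strand): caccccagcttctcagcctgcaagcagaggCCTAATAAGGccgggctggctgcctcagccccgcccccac
Srf (chr17:46556185-46556254, - strand): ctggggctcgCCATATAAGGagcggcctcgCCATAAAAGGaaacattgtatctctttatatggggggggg

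Fibroblast and stellate cell markers went both ways. Of 28 measured, 10 were higher and 7 lower (median log2 ratio 0.11), 4 of them at 1 CPM in S2 alone. Besides Acta2 and Tagln, the surface antigen gene Thy1 was 9.23-fold lower (7.43 to 11.6) and the intermediate filament gene Des 7.86-fold (6.53 to 9.53). Lox, which crosslinks collagen, stood at 2021 CPM in S2 and 600.4 CPM in S0, 3.37-fold higher (3.31 to 3.43), Dcn, a collagen-binding proteoglycan, was 4.87-fold higher (4.51 to 5.27), and Pdgfra, the receptor of fibroblast progenitors, 3.76-fold (3.38 to 4.19). The fibrillar collagen genes differed too, since Col1a1 stood at 854 CPM in S2 and 823 CPM in S0 and Col1a2, which encodes the other chain of type I collagen, at 236 CPM in S2 and 684 CPM in S0, 2.90-fold lower (2.81 to 2.99). Of 30 measured collagens 6 were higher and 5 lower, against 5 and 4 of the 27 at both stages. Of the basement membrane chains, Col4a5 (2.75-fold, 2.68 to 2.83) and Col4a6 (3.03-fold, 2.85 to 3.22), neighbours on the X chromosome, were higher. Col4a3 (4.78-fold) and Col4a4 (3.89-fold) were higher as well, while Col4a1 and Col4a2 were not called.

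Of 14 measured mesothelial markers 4 were higher and 2 lower (median log2 ratio 0.30), the lower ones being Slpi (3.13-fold) and Krt19 (2.73-fold). Upk1b and Upk3b, uroplakins of mesothelium and bladder, were 4.61-fold (4.45 to 4.77) and 3.75-fold higher (3.44 to 4.09), Wt1, the factor of mesothelial cells and podocytes, 4.37-fold (3.94 to 4.86) and Gpm6a 9.51-fold (8.30 to 10.9), while Msln, the mesothelin gene, stood at 1247 CPM in S2 and 774 CPM in S0 and was not called. Of 18 measured biliary and progenitor markers 2 were higher and 5 lower (median log2 ratio 0.10). Krt19 and Krt7, keratins of bile ducts and of mesothelium, were 2.73-fold (2.60 to 2.88) and 2.77-fold lower (2.62 to 2.93), and Itgb6, an integrin of activated epithelium, 7.35-fold (6.46 to 8.39). Epcam, the adhesion molecule of bile ducts and progenitors, had 307 reads in S2 and 106 in S0, 3.52-fold higher (2.82 to 4.44), and Sox9, the duct factor, had 82 reads in S2 and 89 in S0. Of 32 measured keratins and junction genes 7 were higher and 2 lower, and Gjb1, the gap junction protein of hepatocytes, stood at 118 CPM in S2 and 7.41 CPM in S0, 15.9-fold higher (13.8 to 18.5).

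Islet genes, the aim of the protocol, were examined last with the neural genes that share much of their secretory machinery. No read of Ins2 was counted in S2 or S0 (0 reads), and none of Ins1 or of Neurog3, an endocrine progenitor gene, in any of the 4 libraries. Pdx1, the pancreatic master factor, had 5 reads in S2 and 6 in S0, and Mafa, a factor of mature beta cells, 12 reads in S2 and 4 in S0. Of 12 measured islet factors 3 were higher and 2 lower, with 2 of the 12 at 1 CPM in S2 alone and 1 in S0 alone. Among the 9 at 1 CPM or more at both stages 2 were higher and 1 lower. The higher ones of the 12 were Gata4, Gata6 and Onecut1, which liver shares, and St18 was among the lower ones (5 reads in S2, 257 in S0). Of 13 measured hormone and granule genes 4 were higher and 1 lower, 2 of them at 1 CPM in S2 alone. Pcsk1n, an inhibitor of prohormone convertase, had 48 reads in S2 and 0 in S0 (19.5-fold higher against 3 reads). Cadps, a priming factor of granules, had 178 reads in S2 and 45 in S0, 4.81-fold higher (3.45 to 6.83). Npy, a neuropeptide, was the lower one, with 55 reads in S2 and 292 in S0. Of 49 listed neural genes 23 were measured, 10 of them at 1 CPM in S2 alone and 1 in S0 alone, and 9 were higher and 3 lower (median log2 ratio 1.13), against 2 higher and 2 lower of the 12 at 1 CPM or more at both stages. Cntn2, an axonal adhesion molecule, had 757 reads in S2 and 17 in S0, 54.2-fold higher (33.6 to 93.5), and stood at 598 CPM in S3, while Vgf, a granule peptide precursor, stood at 25.3 CPM in S2 and 2.96 CPM in S0 with its peak of 113 CPM in S1. Nes, the intermediate filament nestin of progenitors and activated stellate cells, was 2.73-fold lower (2.63 to 2.84).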

How the data were processed

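Trizol extracts of total RNA went into strand-marking SMARTer libraries for Illumina sequencing, per the labels' protocols. The deposited table holds raw read counts per gene and RPKM values for 4 stages, 1 library each, per the file headers. The build was mm9 and bcl2fastq was used, per the submitters' processing notes, while the aligner, counter, annotation release and strand setting were not given in the sources used here. From the counts, CPM was computed with TMM factors over all 4 libraries (edgeR 4.0.16, R 4.3.3), 0.957 for S2 and 0.968 for S0. Genes with at least 1 CPM in S2 or S0 were kept. The ratio of S2 over S0 was given an exact 95% Clopper-Pearson interval from the share of both libraries' reads that fell in S2 (Python 3.11.15, scipy 1.17.1), and a gene was called where the whole interval lay beyond 2-fold. A gene with 0 reads was set to 3 reads for its fold. Reads are not independent molecules, so intervals and limits cover counting error only, and no test across cultures was possible with 1 library per stage. The script was checked on simulated counts.

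The 44 gene lists and the rule for naming genes were chosen with earlier results of these data known. Of the 1475 list entries 1463 matched the table. The rule named the 12 genes farthest from no change in each direction, the 5 farthest called and the 3 most abundant members of each list, every member of lists with 20 or fewer measured members, the 6 farthest long non-coding genes in each direction, the 10 most abundant genes of both stages and a set of pathway and marker genes. Cd163, Cd5l, E2f1, Hmox1, Inpp4b, Keap1, Myl9, Nfe2l2, Nqo1, Pik3ap1, Slc40a1, Slc7a11, Srebf2, Srf and Timd4 lie outside that rule and were chosen after their values were seen, as were the gene families of the closing section. Some genes of these lists are not reported here by name. Reads of near-identical copies and of overlapping genes are uncertain. Promoter sequences are from RefSeq (GRCm38.p6) and were matched by symbol. The alternatives were no TMM, TMM over S2 and S0 alone, DESeq2 1.42.0 size factors, a filter of 5 CPM, no filter, an interval beyond 4-fold, a 99% interval, the ratio alone beyond 2-fold, and the ratio of the deposited RPKM.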

Additional observations from a re-analysis of the deposited data

How the results depend on the processing

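A stricter fold limit changed the counts most: with the interval beyond 4-fold, 382 genes were higher and 1019 lower in S2, against 1325 and 1746, and 120 of the named genes lost their call. Under the other 8 alternatives the count of higher genes ran from 962 (filter of 5 CPM) to 1938 (ratio alone beyond 2-fold), and that of lower genes from 1406 to 2226 under the same alternatives. The share of called genes that were higher was 43.1%, between 39.9% and 46.5% under those 8, and 27.3% with the interval beyond 4-fold. Other scalings moved the median of all genes by at most 0.06 on the log2 scale, and TMM over S2 and S0 alone and DESeq2 size factors each ended the call of 5 named genes (Ahr, Creb3l3, Gata4, Scg5, Trp53inp1) and called 5 more (Flna, Flt1, Peg3, Stag3, Tpm1). With TMM over S2 and S0 alone, and likewise with DESeq2 size factors, list medians turned to -0.01 for p53 targets, -0.02 for the PI3K and AKT pathway and -0.02 for reported miR-124 targets. A filter of 5 CPM turned the median of biliary markers to -0.19 and that of germline genes to 1.07, and no filter turned that of complement genes to 0.03 and that of imprinted genes to -0.04. The cause was not tested. No paired analysis was possible because each stage had 1 library, and for the same reason none could be left out. The spread between cultures is unknown, stage and culture cannot be told apart, and genes near 1 CPM rest on few reads.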

Other observations

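Gene families named by their symbols showed further differences between S2 and S0, and they were picked after the data were seen. Of 69 genes of the core and linker histone clusters 60 were measured, 11 of them at 1 CPM in S0 alone, and 55 were lower and 1 higher in S2. The higher one was an entry of Hist2h2bb annotated as long non-coding, with 174 reads in S2 and 59 in S0. Among the 49 at 1 CPM or more at both stages 44 were lower. Hist1h1b, a linker histone of dividing cells, stood at 3.46 CPM in S2 and 202 CPM in S0, 58.3-fold lower (46.5 to 74.1), while Hist1h1c, a linker histone made through the whole cell cycle, stood at 261 CPM in S2 and 410.1 CPM in S0 and was not called. Many of these genes are near-identical, so how reads were shared among them is uncertain. Of 80 measured cytosolic ribosomal protein genes 0 were called in either direction, with a median log2 ratio of -0.42. The 13 mitochondrially encoded genes had 0 calls as well, with a median log2 ratio of 0.39, and mt-Co1, a cytochrome oxidase subunit, stood at 16861 CPM in S2 and 10417 CPM in S0.

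Drug-metabolising families, some of whose members are also in the liver lists, were counted in the same way. Of 102 cytochrome P450 genes 38 were measured, 14 of them at 1 CPM in S2 alone and 6 in S0 alone, and 20 were higher and 4 lower. Of the 18 at both stages 9 were higher and 0 lower. Cyp1b1, which oxidises estrogens and polycyclic hydrocarbons, stood at 579 CPM in S2 and 176 CPM in S0, 3.30-fold higher (3.19 to 3.41). Of 7 measured glucuronosyltransferases 4 were higher and 1 lower, against 3 and 1 of the 5 at both stages. Ugt2b34 was 9.20-fold higher (8.82 to 9.60). Of 10 measured aldo-keto reductases 5 were higher and 0 lower, with Akr1c19 21.2-fold higher (18.3 to 24.8). Of 12 measured Wnt ligands, secreted signals of tissue patterning, 6 were higher and 2 lower, against 5 and 1 of the 9 at both stages. Wnt5a stood at 53.7 CPM in S2 and 17 CPM in S0, 3.15-fold higher (2.83 to 3.52), and Wnt7a at 3.32 CPM in S2 and 32.8 CPM in S0, 9.87-fold lower (7.76 to 12.7).

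The matrix proteases split, with 9 of 30 measured genes lower and 3 higher. Plau, the urokinase gene, stood at 5.97 CPM in S2 and 319 CPM in S0, 53.4-fold lower, and Mmp2, a gelatinase of fibroblasts, at 232 CPM in S2 and 69.7 CPM in S0, 3.33-fold higher. Of 33 measured interferon response genes 18 were lower and 0 higher (median log2 ratio -1.92), among them Oas2, a sensor of double-stranded RNA, at 0.273 CPM in S2 and 14 CPM in S0. Among the 29 interferon response genes at 1 CPM or more at both stages 14 were lower and 0 higher, with a median log2 ratio of -1.29. The summed macrophage markers, 1015 CPM in S2 and 18528 CPM in S0, stood beside both groups, and their part was not tested. Of 10 measured toll-like receptors 9 were lower and 0 higher, against 8 and 0 of the 9 at both stages. Tlr3, the one of the 10 not called, stood at 9.06 CPM in S2 and 14.1 CPM in S0.

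Of 33 measured imprinted genes 5 were higher and 3 lower, against 4 and 2 of the 30 at both stages. Of 43 listed germline genes, which most body cells keep methylated, 11 were measured, 2 higher and 2 lower. Of these 11 germline genes, 1 reached 1 CPM in S2 alone and 5 in S0 alone. Among the 5 that reached it at both stages 1 was higher and 0 lower. Tex15, a germ cell gene, stood at 7.97 CPM in S2 and 2.21 CPM in S0, 3.61-fold higher. Of 26 measured p53 targets 3 were higher and 0 lower, with Gadd45a, a growth arrest gene, 4.14-fold higher (3.60 to 4.78) and Mdm2, the inhibitor of p53, at 364 CPM in S2 and 322 CPM in S0 and not called. Of 33 glycolysis and hypoxia genes 3 were lower and 0 higher, with Ldha, the lactate dehydrogenase subunit of anaerobic tissue, at 431 CPM in S2 and 1091 CPM in S0, 2.53-fold lower (2.47 to 2.59).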
